A study of Mus musculus with 18 samples.

Results

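The genes described here are 33 genes of glycolysis, glucose and lactate transport, the switch at pyruvate, and the response to low oxygen, measured in mouse embryonic stem cells. They were taken from a list of gene names, and all 33 were among the 16022 genes tested. Each was read from its brightest probe as a level, meaning the log2 of the deposited signal minus the 75th percentile of that array. All 33 were well above background on all 18 arrays, against 78.4% of all genes tested. Their median level was 3.06, against -0.10 for all genes tested. The cells were strain 129SV stem cells that, per the labels, were knocked out for Esrrb, an orphan nuclear receptor that helps maintain naive pluripotency, and expressed Raf-ErT2, a fusion kinase that is active when 4-hydroxytamoxifen (4OHT) is added and that drives Mek and ERK. On 9 arrays the cells had been given an Esrrb transgene (labelled Rescue), and on 9 an empty vector (labelled KO). Each line had 3 arrays titled 0h (untreated), 3 titled 8h (250 nM 4OHT for 8 h) and 3 titled 8h2h (4OHT for 8 h, then a Mek inhibitor for 2 h). All cells were grown with serum, LIF and the GSK3 inhibitor Chir99021 (2 uM), which was replaced by the FGF receptor inhibitor PD173074 (250 nM) for the last 24 h. The design therefore asks how the genes differ between the lines, how they change when Raf is activated, and whether a change is lost once Mek is blocked.

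Glycolysis breaks glucose down to pyruvate. Glucose enters through transporters and is trapped by hexokinases, phosphofructokinase makes the committed step, and the lower enzymes recover ATP. Pyruvate is either reduced to lactate and exported, or passed into mitochondria through pyruvate dehydrogenase, which the pyruvate dehydrogenase kinases (PDKs) switch off. Under low oxygen the factor HIF1 escapes the prolyl hydroxylases of the Egln family and activates many of these genes. Cultured pluripotent cells are known for high glycolytic flux, and most steps are covered by several isoforms.

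Promoter sequences of the group were inspected because many of these genes are textbook HIF targets. In the RefSeq promoter table (GRCm38.p6), 32 of the 33 genes matched, with 52 windows of the 250 bases before an annotated start. The motif ACGTG, a core of the HIF response element, was present on either strand in 23 of the 52 windows (44.2%), against 20.1% of windows of all tested genes and 16.6% of all windows in the table. The related core GCGTG was present in 26 of 52 (50%), against 40.7% and 28.2%. The E-box CACGTG, which contains ACGTG on both strands, was present in 15.4%, against 7.82% and 6.02%. The windows of these genes and of tested genes both had a median of 13 CpG dinucleotides, against 6 for all windows. The letters AAGGTCA, bound by Esrrb, stood in 3.85% of these windows against 3.26% of windows of tested genes, and the AP-1 motif TGANTCA in 1.92% against 4.96%. A match to letters shows no binding. The windows below belong to Pfkp, whose group means spread the most, to Ldha, whose group means spread the least, and to Slc16a1, a lactate transporter. The change of Slc16a1 at 8h differed between the lines in the main analysis, but not in most fits that left out 1 array. Capitals mark ACGTG or GCGTG on either strand, and positions are chr13:6648772-6649021 on the minus strand, chr7:46845554-46845803 on the plus strand and chr3:104638414-104638663 on the plus strand.
Pfkp: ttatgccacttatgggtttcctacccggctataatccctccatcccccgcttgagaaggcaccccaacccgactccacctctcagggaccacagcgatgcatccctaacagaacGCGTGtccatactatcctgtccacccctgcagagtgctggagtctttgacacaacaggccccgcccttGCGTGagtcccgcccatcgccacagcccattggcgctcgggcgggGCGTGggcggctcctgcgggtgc
Ldha: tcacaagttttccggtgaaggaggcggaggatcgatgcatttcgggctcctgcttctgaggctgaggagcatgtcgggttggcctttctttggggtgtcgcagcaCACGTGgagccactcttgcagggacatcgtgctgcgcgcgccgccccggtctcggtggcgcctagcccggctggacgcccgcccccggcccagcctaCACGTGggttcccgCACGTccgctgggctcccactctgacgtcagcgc
Slc16a1: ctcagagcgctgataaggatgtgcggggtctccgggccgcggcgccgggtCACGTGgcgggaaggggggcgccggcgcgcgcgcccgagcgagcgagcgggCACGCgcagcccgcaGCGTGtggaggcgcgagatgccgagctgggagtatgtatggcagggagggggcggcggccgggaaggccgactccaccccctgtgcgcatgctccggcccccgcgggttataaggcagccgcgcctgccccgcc
The Ldha window held 5 ACGTG matches, 2 of its sites being E-boxes that count on both strands, and 0 of GCGTG. The Pfkp window held 3 GCGTG and 0 ACGTG, and the Slc16a1 window held 2 of each, its 2 ACGTG matches being 1 E-box counted on both strands. For each gene the window with the most of these matches was printed, and the other Ldha window held 0 ACGTG and 1 GCGTG. The density of the printed Ldha window thus follows in part from that choice. A relation between matches and the spread of group means, as read by the brightest probes, was not tested.

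Several facts of the series touch every result. Titles and source names conflict on 12 arrays: 6 arrays titled 8h carry the inhibitor in the source name and 6 titled 8h2h lack it. The titles are used here, and Dusp6, an ERK feedback phosphatase, followed them, with mean levels of 4.67 at titled 8h and 0.43 at titled 8h2h in the Rescue-labelled line, and of 4.58 and 0.17 in the KO-labelled line. Esrrb signal went against the line labels, with 5.03 ± 0.27 (SD, n = 3) on arrays labelled KO at 0h and 4.40 ± 0.41 on arrays labelled Rescue, and 3.75 ± 0.31 against 1.91 ± 0.21 at 8h, so directions below refer to the labels only. The file annotation does not say whether the Esrrb probe lies in the deleted part. Replicates a, b and c were 1 slide each, and since a group's position did not vary between slides, position and group cannot be told apart. Replicate b of KO 8h2h stood apart: 88.6% of its probes were well above background, against 46.6% to 63.8% on the others. Replicate c of Rescue 0h had the lowest 75th percentile of signal, 297 against up to 765. All 10 stem cell markers were above background in every group. The labels do not say that replicates came from separate cultures, and the p-values then reflect only array-to-array spread, which may be technical.

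Across the 6 groups, the 33 genes differed widely in how far they moved. The range from the lowest to the highest group mean had a median of 0.90 over these genes and 0.77 over all genes tested, while the median SD between replicate arrays was 0.21 and 0.23. Pfkp spread the most, at 3.86, followed by Ldhb at 2.37, Hk1 at 1.99 and Pdk1 at 1.97. Ldha (0.19), Hif1a (0.21) and Gapdh (0.24) spread the least. Calls are at a p below 0.05 in limma after Benjamini-Hochberg adjustment over all 16022 genes. In the 9 comparisons of 2 groups, 23 genes were called at least once and 10 were not called in any. The share of all genes called at least once was not computed, so these counts do not set the 33 genes apart from other genes. Of the 80 calls over all 12 comparisons, 20 were kept in all 10 alternative analyses and all 18 fits that left out 1 array, and none changed sign. Among the 10 alternatives, the deposited values equal the signal of the main analysis, so that 1 had to keep every call.

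**Figure D1:**
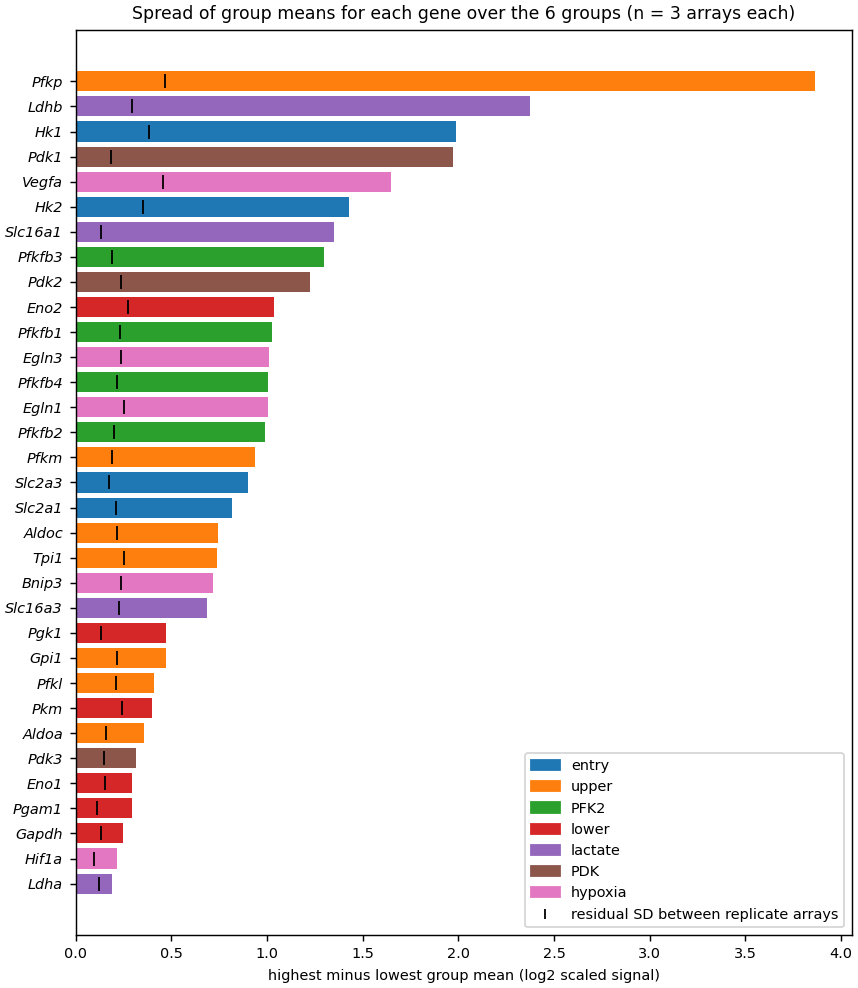
Bars give the difference between the highest and lowest of the 6 group means (n = 3 arrays each, log2 scaled signal) for each of the 33 genes, coloured by role, and black ticks give the residual SD between replicate arrays. Pfkp reached 3.86, whereas Ldha, Hif1a and Gapdh stayed between 0.19 and 0.24.

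At the entry step, Hk1 was higher on the KO arrays at 0h, Hk2 rose in the Rescue line at 8h, and the glucose transporters Slc2a1 and Slc2a3 changed after treatment. Hk1, the hexokinase of most tissues, was read at 1.47, 1.50 and 1.36 on the Rescue 0h arrays (slides a, b and c), 1.09, 0.90 and 0.83 at 8h, and 1.48, 1.19 and 1.18 at 8h2h. On the KO arrays it was read at 3.35, 2.51 and 2.92 at 0h, 2.44, 1.65 and 1.46 at 8h, and 2.55, 1.36 and 2.21 at 8h2h. All KO arrays lay above all Rescue arrays at 0h and 8h, and the groups overlapped at 8h2h. Hk1 was higher in KO by 1.48 ± 0.30 (SE) at 0h, a 2.80-fold difference with adjusted p = 0.00293, and by 0.91 ± 0.30 at 8h. It fell in the KO line at 8h by 1.08 ± 0.30 (adjusted p = 0.0149) and at 8h2h by 0.89 ± 0.30. The 0h difference was kept in all 18 fits leaving out 1 array, the 8h line difference in 8, and the falls in 15 (lost without KO 0h a, KO 8h b or KO 8h c) and 5. Without KO 8h2h b the fall at 8h2h was -0.55. A dimmer Hk1 probe gave 0.63 for the 0h line difference and 0.04 at 8h, and neither was called, and with the mean of probes the 8h difference was 0.47 and lost its call.

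Hk2, the inducible hexokinase, was read at 3.17, 3.01 and 1.81 on the Rescue 0h arrays, 3.80, 3.69 and 3.73 at 8h, and 3.13, 3.28 and 3.44 at 8h2h. On the KO arrays Hk2 was read at 3.80, 3.47 and 3.33 at 0h, 4.14, 3.95 and 4.18 at 8h, and 3.84, 3.31 and 3.86 at 8h2h. Rescue 0h c lay far below its replicates. Hk2 rose by 1.07 ± 0.27 in the Rescue line at 8h (2.10-fold, adjusted p = 0.00869), and by 0.65 without that array, which kept the call. Its line difference at 0h, 0.87 ± 0.27, fell to 0.44 without that array (adjusted p = 0.113) and was kept in 6 of 18 such fits.

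The glucose transporters were called in different comparisons. Slc2a1 (GLUT1), the widespread transporter, ran from 5.17 to 6.24 over all arrays and rose in the KO line at 8h by 0.82 ± 0.17 (adjusted p = 0.00246), with a fall of 0.62 ± 0.17 from 8h to 8h2h (adjusted p = 0.0413). The rise was kept in all 18 fits leaving out 1 array and the fall in 6. In the Rescue line its change at 8h was -0.10, and the line difference in that change, 0.92 (95% interval 0.41 to 1.44), had an adjusted p of 0.0680, which was 0.0398 with slide as a block, and the same sign on all 3 slides. At 8h Slc2a1 was higher in KO by 0.59 ± 0.17, a call kept in 13 of 18 such fits and lost without any 1 of the Rescue 8h arrays, KO 8h a or KO 8h c. Slc2a3 (GLUT3), the high-affinity transporter, fell by 0.80 ± 0.15 in the Rescue line both at 8h and at 8h2h, and by 0.52 ± 0.15 in the KO line at 8h2h. That last value was -0.35 without KO 8h2h b and -0.48 without KO 0h a, and the call was lost in both, as it was under quantile normalization (-0.33). The 2 Slc2a3 probes were both called for that fall. At 8h in the KO line the brightest gave -0.34 with no call and the dimmer gave -0.68. That KO change was called with the mean of probes (-0.51, adjusted p = 0.00203) and with slide as a block (adjusted p = 0.0358). For KO against Rescue at 0h the probes gave -0.38 and -0.53, and 1 was called.

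**Figure D2:**
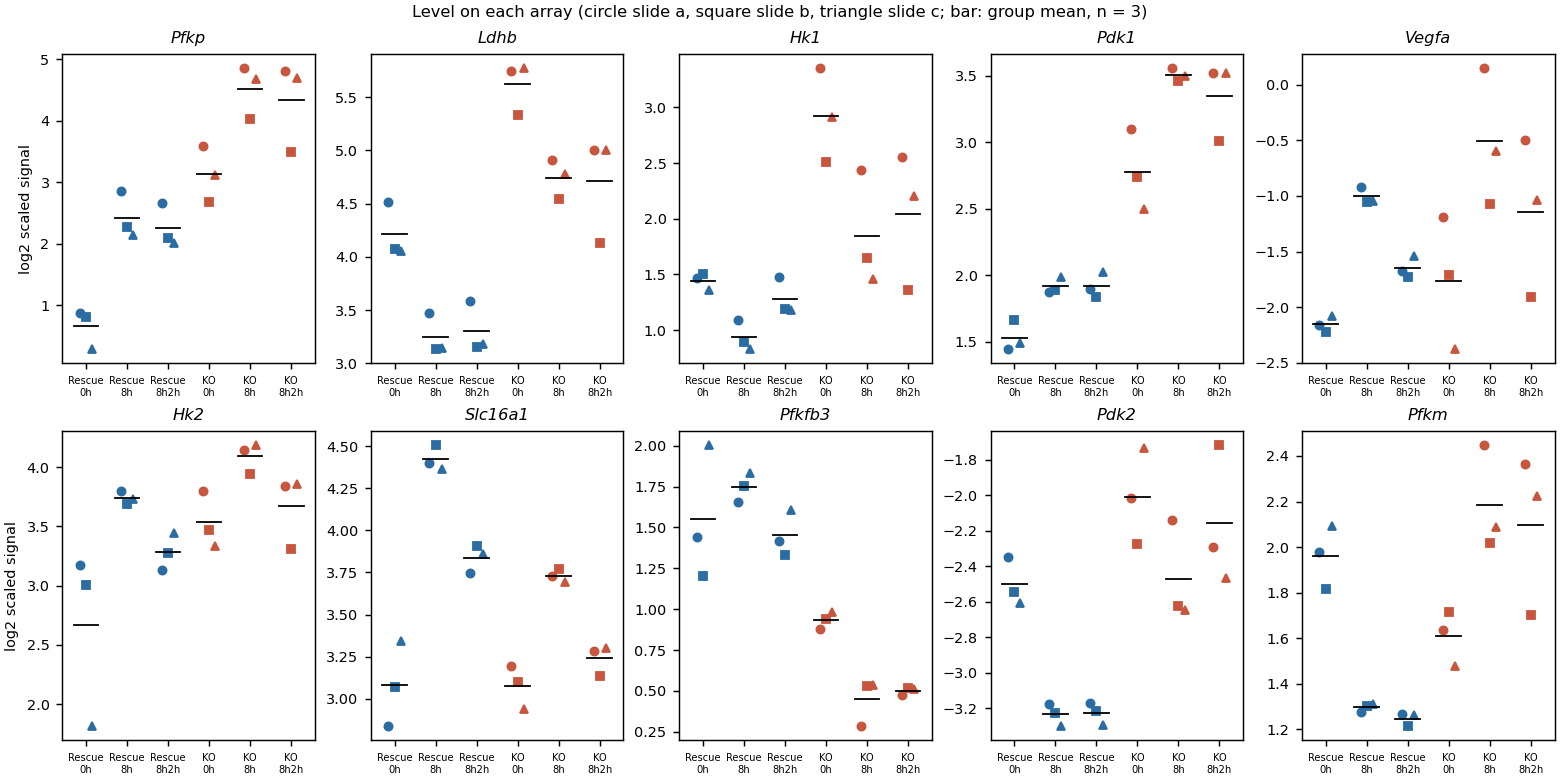
Each panel shows 1 gene, with the level on every array (log2 scaled signal) by group, Rescue-labelled arrays in blue and KO-labelled arrays in red, symbols for slides a, b and c, and a bar for the group mean. Pfkp, Ldhb and Pdk1 lie higher on the KO arrays at each titled time, Pfkfb3 lies lower, and Pfkm falls in the Rescue line while it rises in the KO line.

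In the upper steps, most calls fell on 2 phosphofructokinase isoforms. Pfkp, the platelet-type isoform, was read at 0.88, 0.82 and 0.29 on the Rescue 0h arrays, 2.85, 2.28 and 2.15 at 8h, and 2.66, 2.10 and 2.02 at 8h2h. On the KO arrays it was read at 3.59, 2.68 and 3.12 at 0h, 4.86, 4.03 and 4.68 at 8h, and 4.81, 3.50 and 4.69 at 8h2h. The untreated KO arrays lay above all untreated Rescue arrays, and treated arrays lay above untreated arrays in both lines except for KO 8h2h b. Pfkp was higher in KO by 2.47 ± 0.36 at 0h (5.54-fold, adjusted p = 0.000266), by 2.10 ± 0.36 at 8h and by 2.07 ± 0.36 at 8h2h. It rose at 8h by 1.77 ± 0.36 in the Rescue line (3.40-fold, adjusted p = 0.00178) and by 1.39 ± 0.36 in the KO line (adjusted p = 0.00998). At 8h2h it was still higher than at 0h by 1.60 in the Rescue line and 1.20 in the KO line, and from 8h to 8h2h it differed by -0.17 (95% interval -0.94 to 0.60) and -0.19 (-0.96 to 0.58). A second Pfkp probe was called in the same direction in all 7 comparisons. The KO 8h2h rise was lost without KO 0h b, KO 0h c, KO 8h2h a or KO 8h2h c (0.96 to 1.20), and the other 6 calls were kept in every fit leaving out 1 array and every alternative.

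Pfkm, the muscle-type isoform, responded in opposite directions in the lines. It was read at 1.98, 1.82 and 2.09 on the Rescue 0h arrays, 1.28, 1.30 and 1.31 at 8h, and 1.27, 1.21 and 1.26 at 8h2h. The KO arrays gave 1.64, 1.72 and 1.48 at 0h, 2.45, 2.02 and 2.09 at 8h, and 2.36, 1.70 and 2.22 at 8h2h. The Rescue arrays fell with no overlap, and the KO arrays rose with no overlap at 8h and with KO 8h2h b inside the 0h range. Pfkm fell in the Rescue line by 0.66 ± 0.15 at 8h (adjusted p = 0.00480) and by 0.72 ± 0.15 at 8h2h, and rose in the KO line by 0.57 ± 0.15 at 8h (adjusted p = 0.0136) and by 0.49 ± 0.15 at 8h2h. The difference between these responses was itself called, at 1.24 ± 0.22 for 8h (adjusted p = 0.00784) and 1.20 ± 0.22 for 8h2h (adjusted p = 0.0132), and was kept in all 18 fits leaving out 1 array. Without scaling both of these calls were lost (1.22 and 1.26, adjusted p = 0.536 and 0.533). With only the arrays compared, that for 8h2h was lost (adjusted p = 0.0637). KO was higher than Rescue by 0.89 at 8h and 0.85 at 8h2h, and differed by -0.35 at 0h (95% interval -0.69 to -0.02, adjusted p = 0.137). The KO rise at 8h was lost without KO 8h a (0.44) or KO 0h c (0.51) and with normexp background correction (0.38), and that at 8h2h was kept in 13 of 18 such fits. Pfkm was read by a single probe. Pfkl, the liver-type isoform, was not called, and its largest difference was 0.39 (95% interval 0.02 to 0.76, adjusted p = 0.133), KO against Rescue at 8h.

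The remaining upper enzymes had few calls on their brightest probes. Aldoc, the brain-type aldolase, and Tpi1, triose phosphate isomerase, were higher in KO at 0h by 0.65 ± 0.18 and 0.69 ± 0.20 (adjusted p = 0.0188 and 0.0280). Aldoc lost its call without KO 0h a, Rescue 0h c or KO 0h c, and Tpi1 without any of those or Rescue 0h b. All 3 Tpi1 probes were called higher in KO at 0h. In the KO line its brightest probe fell by 0.39 at 8h and 0.48 at 8h2h with no call. Of the 3 probes, 2 were called lower in each, with values down to -0.67 and -0.76. The mean of probes was also called (-0.52 and -0.62, adjusted p = 0.00364 and 0.00147). Aldoa, the ubiquitous aldolase with levels between 7.88 and 8.58, and Gpi1, which isomerises glucose 6-phosphate, were not called. Of the 3 Gpi1 probes, 2 dimmer ones were called higher in KO at 0h, by up to 0.59, against 0.40 for the brightest.

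The PFK2 enzymes set the level of fructose 2,6-bisphosphate, the main activator of phosphofructokinase, and 2, 3 and 2 of the 4 were called lower in KO at 0h, 8h and 8h2h, against 11.3%, 12.4% and 12.3% of all genes tested. Pfkfb3, the isoform with the strongest kinase bias, was read at 1.44, 1.20 and 2.00 on the Rescue 0h arrays, 1.66, 1.75 and 1.84 at 8h, and 1.42, 1.33 and 1.61 at 8h2h. In the KO line the readings were 0.88, 0.94 and 0.98 at 0h, 0.28, 0.53 and 0.53 at 8h, and 0.48, 0.52 and 0.51 at 8h2h. Every KO array lay below every Rescue array. The difference was -0.62 ± 0.16 at 0h (adjusted p = 0.0142), -1.30 ± 0.16 at 8h (2.46-fold, adjusted p = 5.75e-05) and -0.95 ± 0.16 at 8h2h. Without Rescue 0h c the 0h difference was -0.39, still called, and without KO 0h a it lost its call at -0.59. A second, dimmer Pfkfb3 probe pointed the same way in all 3 (-0.39 to -2.27) with no call. In the KO line Pfkfb3 fell at 8h by 0.48 ± 0.16, a call kept in 12 of 18 fits leaving out 1 array and lost with the mean of probes (-0.77).

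Pfkfb2, the heart-type isoform, was lower in KO by 0.60 ± 0.16 at 0h and 0.53 ± 0.16 at 8h. Pfkfb1, the liver-type isoform, was lower by 0.59 ± 0.19 at 8h and 0.66 ± 0.19 at 8h2h. These 4 calls were kept in 13 to 16 of 18 fits leaving out 1 array, and in 6 or 7 of 10 alternatives. Quantile normalization lost both Pfkfb2 calls (-0.57 at 0h and -0.50 at 8h, adjusted p = 0.233 and 0.304). Normexp lost both Pfkfb1 calls (-0.48 at 8h and -0.56 at 8h2h, adjusted p = 0.220 and 0.138). A second Pfkfb1 probe gave 0.13 at 8h2h, opposite in sign and not called, and the mean of probes gave -0.27, with no call. Pfkfb1 fell in the KO line at 8h by 0.56 ± 0.19, which became -0.36 without KO 0h b, -0.85 without KO 0h c and -0.31 with normexp, and was kept in 7 of 18 such fits. On its brightest probe Pfkfb2 was not called after treatment. With the mean of probes Pfkfb2 was called above 0h at Rescue 8h (0.43), KO 8h (0.49) and KO 8h2h (0.70), with adjusted p = 0.0388, 0.0212 and 0.00304 in limma. Pfkfb4, a hypoxia-inducible isoform, was not called between the lines. It rose by 0.59 ± 0.18 (Rescue) and 0.64 ± 0.18 (KO) at 8h. At 8h2h Pfkfb4 stood 0.96 ± 0.18 (adjusted p = 0.00119) and 0.81 ± 0.18 (adjusted p = 0.00443) above 0h. Under quantile normalization all 4 calls were lost, with values of 0.59, 0.64, 0.94 and 0.18 in that order (adjusted p = 0.417, 0.376, 0.191 and 0.810), and normexp gave 0.33 for the KO rise at 8h (adjusted p = 0.115). The 8h calls were lost without Rescue 0h a, Rescue 0h c or Rescue 8h b in the Rescue line and without KO 0h c or KO 8h c in the KO line.

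The lower steps were the most even, as read by the brightest probes in the main analysis. Gapdh, Pgam1 and Pkm, which make the redox, mutase and final ATP-forming steps, and Eno1, the ubiquitous enolase, were not called there in any comparison of 2 groups. With the mean of probes Pkm was called higher in KO at 0h (0.40, adjusted p = 0.0448 in limma). Gapdh ran from 8.00 to 8.68 over the 18 arrays, and its largest difference was -0.21 (95% interval -0.47 to 0.04), KO 8h2h against 0h. The intervals for the largest differences of the other 3 reached -0.76 for Pkm, -0.57 for Eno1 and 0.48 for Pgam1, so changes of that size are not excluded by these arrays. Genes of this kind have many processed copies, and a probe may not separate them. Pgk1, the first ATP-forming step, was higher in KO at 0h by 0.44 ± 0.12 (adjusted p = 0.0190), lost without KO 0h c (0.35) or Rescue 0h b (0.41) and with normexp (0.25, adjusted p = 0.248). Under quantile normalization Pgk1 was also called higher in KO at 8h and at 8h2h (0.30 in each, adjusted p = 0.0288 and 0.0231). Eno2, the neuronal enolase with levels of -2.97 to -1.50, was higher at 8h2h than at 0h by 0.87 ± 0.22 in the Rescue line (adjusted p = 0.00945) and by 0.84 ± 0.22 in the KO line (adjusted p = 0.0121). Normexp background correction reduced these to 0.33 and 0.25 and quantile normalization gave 0.00 in the KO line, and in each the call was lost. The KO call was also lost without KO 0h b (0.65) or KO 0h c (0.75).

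At lactate, the 2 dehydrogenase subunits behaved differently. Ldhb, the heart-type subunit, was read at 4.52, 4.07 and 4.06 on the Rescue 0h arrays, 3.47, 3.13 and 3.15 at 8h, and 3.58, 3.15 and 3.18 at 8h2h. KO arrays read 5.75, 5.34 and 5.77 at 0h, 4.91, 4.54 and 4.77 at 8h, and 5.0, 4.13 and 5.0 at 8h2h. KO lay above Rescue at each time and treated arrays lay below untreated ones in each line, without overlap. Ldhb was higher in KO by 1.40 ± 0.23 at 0h, 1.49 ± 0.23 at 8h and 1.41 ± 0.23 at 8h2h (2.65-fold, 2.81-fold and 2.65-fold, adjusted p = 0.000689, 0.000358 and 0.000565). It fell at 8h by 0.97 ± 0.23 in the Rescue line and 0.88 ± 0.23 in the KO line, and stood 0.91 below 0h at 8h2h in both. A second probe was called in the same direction in all 7 comparisons, and every fit leaving out 1 array kept them. The line difference in the 8h fall was 0.09 (95% interval -0.61 to 0.78). Ldha, the muscle-type subunit, ran from 7.73 to 8.17, and its largest difference was -0.19 (95% interval -0.43 to 0.05, adjusted p = 0.239), KO 8h2h against 0h. Its second, dimmer probe was called higher in KO at 0h, by 0.65, so the even level of Ldha holds for the brightest probe only.

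Slc16a1 (MCT1), a proton-coupled lactate transporter, was the only one of the 33 called in both comparisons of 8h2h with 8h. It was read at 2.84, 3.07 and 3.34 on the Rescue 0h arrays, 4.40, 4.51 and 4.37 at 8h, and 3.75, 3.91 and 3.86 at 8h2h. The KO levels were 3.19, 3.10 and 2.94 at 0h, 3.73, 3.77 and 3.69 at 8h, and 3.28, 3.14 and 3.30 at 8h2h. In both lines the 8h arrays lay above all others, and at 8h2h the Rescue arrays lay between the other times whereas the KO arrays overlapped those of 0h. It rose at 8h by 1.34 ± 0.12 in the Rescue line (2.54-fold, adjusted p = 1.16e-06) and by 0.65 ± 0.12 in the KO line (adjusted p = 0.000849), both kept in every fit leaving out 1 array and every alternative. From 8h to 8h2h it fell by 0.59 ± 0.12 (adjusted p = 0.0132) and 0.49 ± 0.12 (adjusted p = 0.0220). The first fall was lost without Rescue 8h2h a or Rescue 8h b, and the second without any 1 of the KO 8h arrays or KO 8h2h b. At 8h2h the Rescue level was still 0.76 ± 0.12 above 0h. The rise at 8h was smaller in the KO line by 0.69 ± 0.17, with an adjusted p of 0.0454 that was 0.0537 with slide as a block and that stayed below 0.05 in 3 of 18 fits leaving out 1 array. Slc16a1 was accordingly lower in KO at 8h by 0.70 ± 0.12 and at 8h2h by 0.60 ± 0.12, with a difference of -0.01 at 0h.

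Slc16a3 (MCT4), the lactate exporter of highly glycolytic cells, rose in the Rescue line by 0.60 ± 0.18 at 8h and 0.68 ± 0.18 at 8h2h (adjusted p = 0.0215 and 0.0143). Without Rescue 0h b, or without the slide a array of the treated group, each call was lost at 0.48 to 0.56. In the KO line its change at 8h was 0.08, and the difference between the lines was not called.

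Among the PDKs, which phosphorylate and inactivate pyruvate dehydrogenase, 1 of 3 was called higher in KO at 0h and 2 at 8h and 8h2h. The shares of all genes tested that were higher in KO were 7.09%, 9.16% and 9.55%. Pdk1, the HIF-responsive kinase, was read at 1.44, 1.66 and 1.49 on the Rescue 0h arrays, 1.87, 1.89 and 1.99 at 8h, and 1.90, 1.84 and 2.02 at 8h2h. The corresponding KO levels were 3.10, 2.74 and 2.50 at 0h, 3.56, 3.46 and 3.50 at 8h, and 3.52, 3.01 and 3.52 at 8h2h. Every KO array lay above every Rescue array. The difference was 1.25 ± 0.15 at 0h, 1.59 ± 0.15 at 8h (3.0-fold, adjusted p = 9.44e-06) and 1.43 ± 0.15 at 8h2h, kept in every fit and alternative. Of the 4 Pdk1 probes, 3 were called in each, and a dimmer one gave 0.10 to 0.37. Pdk1 rose in the KO line by 0.73 ± 0.15 at 8h (adjusted p = 0.00292) and was 0.57 ± 0.15 above 0h at 8h2h, the latter lost without KO 0h c, KO 8h2h a or KO 8h2h c.

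Pdk2, a widely expressed kinase at low level here, was read at -2.35, -2.55 and -2.61 on the Rescue 0h arrays, -3.17, -3.23 and -3.30 at 8h, and -3.17, -3.22 and -3.29 at 8h2h. In the KO line Pdk2 was read at -2.01, -2.28 and -1.73 at 0h, -2.14, -2.63 and -2.65 at 8h, and -2.29, -1.72 and -2.46 at 8h2h. The Rescue arrays dropped together after treatment. Pdk2 fell in that line by 0.73 ± 0.19 at 8h (adjusted p = 0.00922) and at 8h2h, and KO was higher by 0.76 ± 0.19 at 8h and 1.07 ± 0.19 at 8h2h (adjusted p = 0.0102 and 0.00108). Under quantile normalization all 4 of these calls were lost. The Rescue changes were then -0.68 at 8h and -0.68 at 8h2h (adjusted p = 0.109 and 0.136). The line differences were 0.69 at 8h and 0.33 at 8h2h (adjusted p = 0.128 and 0.448). The 8h line difference was lost without KO 8h a (0.60) and the Rescue 8h2h fall without Rescue 0h a (-0.65). Pdk3 was not called, with a largest difference of -0.31 (95% interval -0.59 to -0.04).

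The hypoxia genes did not move as a block. Hif1a, the oxygen-regulated subunit of HIF1, which is controlled mainly through its protein, ran from 2.40 to 2.83, and its largest difference was -0.20 (95% interval -0.40 to 0.01, adjusted p = 0.146), Rescue 8h against 0h. Vegfa, the angiogenic growth factor, was read at -2.16, -2.23 and -2.08 on the Rescue 0h arrays, -0.92, -1.05 and -1.05 at 8h, and -1.68, -1.73 and -1.54 at 8h2h. The KO readings were -1.19, -1.71 and -2.38 at 0h, 0.15, -1.07 and -0.60 at 8h, and -0.50, -1.91 and -1.03 at 8h2h. The Rescue replicates lay close together, and the KO replicates of each time spread over more than 1. Vegfa rose at 8h by 1.15 ± 0.35 in the Rescue line (2.22-fold, adjusted p = 0.0237) and by 1.26 ± 0.35 in the KO line (2.39-fold, adjusted p = 0.0166). From 8h to 8h2h it differed by -0.64 in both, with 95% intervals of -1.40 to 0.11, not called. The Rescue rise was lost without any 1 of the Rescue 8h arrays, Rescue 0h a or Rescue 0h b (1.11 to 1.17), and the KO rise without KO 8h a (0.93) or KO 0h c (0.95). Under quantile normalization both calls were lost, at 1.12 (Rescue, adjusted p = 0.268) and 1.23 (KO, adjusted p = 0.230). The KO call was also lost with the mean of probes (0.86, adjusted p = 0.0950). Of the 4 Vegfa probes, 3 were called in the Rescue line and 2 in the KO line.

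The prolyl hydroxylases, which mark HIF for destruction and are themselves HIF targets, and Bnip3, a mitophagy receptor, were called lower at 8h in 1 or both lines. Egln3 fell in the Rescue line by 0.84 ± 0.19 (adjusted p = 0.00379) and Egln1 in the KO line by 0.94 ± 0.20 (adjusted p = 0.00302), both kept in every fit leaving out 1 array. For neither was the change shown to differ between the lines, with adjusted p = 0.208 and 0.428 for that difference. Bnip3 fell in both, by 0.67 ± 0.19 and 0.59 ± 0.19 (adjusted p = 0.0151 and 0.0314). The Bnip3 calls were kept in 15 (lost without Rescue 0h c, Rescue 8h b or Rescue 8h c) and 13 of 18 such fits. Between the lines, Egln3 was lower in KO at 0h by 0.93 ± 0.19 (adjusted p = 0.00333), and Egln1 was lower at 8h by 0.65 ± 0.20 and at 8h2h by 0.64 ± 0.20, calls kept in 12 and 13 of 18 fits.

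Counted together, the line comparisons gave more genes called higher than lower on the KO arrays. At 0h, 8 of 33 genes (24.2%) were higher and 3 (9.1%) lower, against 7.09% and 11.3% of all genes tested. At 8h, 7 (21.2%) were higher and 5 (15.2%) lower, against 9.16% and 12.4%, and at 8h2h 5 (15.2%) were higher and 4 (12.1%) lower, against 9.55% and 12.3%. The share of lower genes was thus near the background throughout. The median difference over the 33 genes was 0.20, 0.21 and 0.07, against -0.02, -0.01 and 0.01 over all genes. Pfkp, Ldhb and Pdk1 were called higher and Pfkfb3 lower at all 3 titled times. Without scaling, where the median of all genes was 0.12, 0.11 and 0.21, the splits were 4 higher and 0 lower, 3 and 1, and 5 and 1. Of the 7 trophoblast markers tested, all 7 were lower in KO at 0h and 6 at 8h and at 8h2h. Their summed linear level, relative to the 75th percentile, was 160 to 188 on Rescue 0h arrays and 14.0 to 20.2 on KO 0h arrays, where Cdx2, Hand1 and Plac1 were not above background on any array. Of 7 primitive endoderm markers, 3 were lower in KO at 0h, 1 at 8h, and 1 at 8h2h, when 2 (Foxa2 and Sox7) were higher. Of 10 stem cell markers, 6 were higher and 1 lower in KO at 0h, and 5 were higher and 0 lower at 8h and at 8h2h. Their summed level was 695 to 823 on Rescue 0h arrays and 796 to 858 on KO 0h arrays, 608 to 630 and 677 to 790 at 8h, and 524 to 620 and 574 to 721 at 8h2h. Of 7 fibroblast markers tested only Thy1 was called, at 8h and 8h2h. The part of these markers in the line differences of the 33 genes was not tested. In bulk samples, fewer cells of a type and less RNA per cell cannot be told apart.

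**Figure D3:**
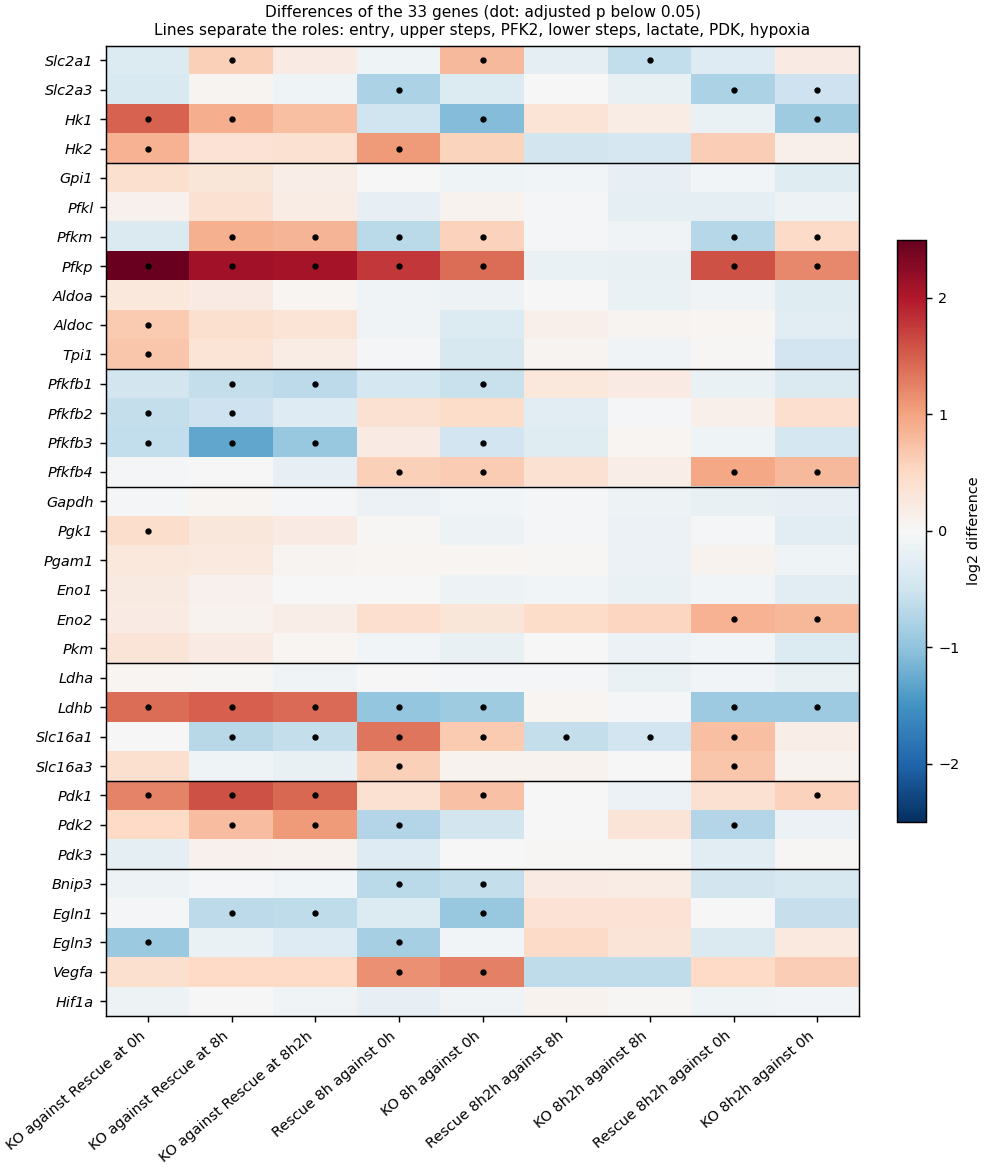
Colour gives the log2 difference of each of the 33 genes (rows, ordered by role) in each of the 9 comparisons of 2 groups (columns), and a dot marks an adjusted p below 0.05 in limma. The first 3 columns, KO against Rescue, hold 11, 12 and 9 dots, and the columns of 8h2h against 8h hold 1 and 2.

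At 8h against 0h, as many genes fell as rose, within 1. In the Rescue line 6 (18.2%) were higher and 6 (18.2%) lower, against 13.0% and 16.1% of all genes tested, and in the KO line 7 (21.2%) were higher and 6 (18.2%) lower, against 11.9% and 13.5%. The medians over the 33 genes were -0.07 and -0.08, against -0.05 and -0.04 over all genes. Pfkp, Pfkfb4, Slc16a1 and Vegfa were called higher and Ldhb and Bnip3 lower in both lines. Without scaling, which raised the median of all genes to 0.29 and 0.28, the splits were 3 higher and 0 lower in the Rescue line and 5 and 0 in the KO line. Trophoblast markers moved here too, with 3 of 7 higher in the Rescue line, and 4 higher and 1 lower in the KO line. Of the 10 stem cell markers 2 were higher and 5 lower in the Rescue line, where Nanog, a core pluripotency factor, fell by 4.73, and 1 was higher and 3 lower in the KO line. The part of either marker list was not tested.

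**Figure D4:**
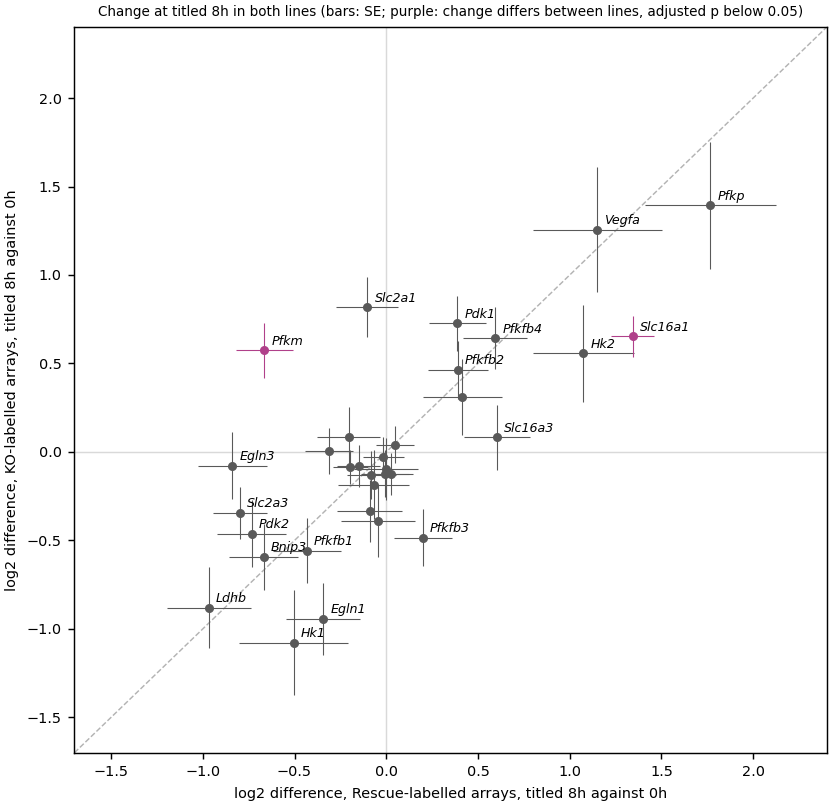
Each point is 1 of the 33 genes, with its log2 difference between titled 8h and 0h on the Rescue-labelled arrays (horizontal) and the KO-labelled arrays (vertical), bars giving the SE and the dashed line equal change. The purple points, Pfkm and Slc16a1, are those whose change differed between the lines in limma. The Slc16a1 call was kept in 3 of 18 fits leaving out 1 array.

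From 8h to 8h2h few of the 33 genes were called. In the Rescue line 0 were higher and 1 lower, against 1.43% and 1.45% of all genes, and in the KO line 0 higher and 2 lower (6.1%), against 4.14% and 3.20%. No gene was called in this step without scaling. Against 0h, 5 genes were higher at 8h2h and 4 lower in the Rescue line, against 10.5% and 10.8%, and 5 higher and 3 lower in the KO line, against 11.0% and 11.4%. The splits without scaling, where the median of all genes was 0.36 and 0.47, were 4 and 0, and 5 and 0. The responses to 8h and to 8h2h share the 0h arrays. The difference between the lines was called for 1 gene upward (Pfkm) and 1 downward (Slc16a1) at 8h, against 1.07% and 1.21% of all genes. At 8h2h against 0h it was called for 1 upward (Pfkm) and 0 downward, against 1.19% and 0.830%. For 8h2h against 8h it was called for 0 genes, against 0.0499% and 0.00624%.

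Other genes of the same pathways gave a mixed picture. Of 22 further glycolysis and transporter genes, 17 could be tested. At 0h 1 was higher and 2 lower in KO, against 7.09% and 11.3% of all genes tested. The lower genes were Eno3, the muscle enolase, by 1.54 ± 0.17, and Hkdc1, a hexokinase-domain protein that was not well above background on any KO 0h array. At 8h 4 fell in the Rescue line and 0 rose (16.1% and 13.0% of all genes), among them Slc2a4 (GLUT4) by 1.44 ± 0.29 and Eno3 by 1.32 ± 0.17, and in the KO line 4 fell and 1 rose (13.5% and 11.9%). Of 10 genes at the pyruvate dehydrogenase gate, 1, 4 and 2 were higher in KO at the 3 times, against 7.09%, 9.16% and 9.55% of all genes, and 0 lower. Pdk4, the starvation-responsive PDK, was higher by 1.08 ± 0.20, 2.58 ± 0.20 and 2.26 ± 0.20. Its 8h change, -1.33 ± 0.20 in the Rescue line, differed between the lines by 1.49 ± 0.28 (adjusted p = 0.0123). Pdp1, the phosphatase that opposes the PDKs, rose at 8h by 1.11 ± 0.18 and 0.98 ± 0.18.

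Of 34 further hypoxia-associated genes, 33 were tested. At 8h 11 rose and 4 fell in the Rescue line, against 13.0% and 16.1% of all genes, and 5 rose and 5 fell in the KO line, against 11.9% and 13.5%. Car9, a carbonic anhydrase and classical HIF target, was read at -3.88, -3.74 and -3.90 on the Rescue 0h arrays and -1.40, -0.90 and -1.26 at 8h, and at -3.43, -3.84 and -3.50 in KO at 0h and -2.93, -2.74 and -2.75 at 8h. It rose by 2.65 ± 0.18 in the Rescue line, and its rise differed between the lines by -1.87 ± 0.26 (adjusted p = 0.00169). Ndrg1, a stress-responsive gene, differed likewise, by -1.20 ± 0.20 (adjusted p = 0.00622). Stc2, a secreted glycoprotein, rose in both lines, by 1.48 ± 0.26 and 2.21 ± 0.26. Between the lines 9 of these genes were higher and 6 lower in KO at 0h, 6 and 9 at 8h, and 3 and 11 at 8h2h, against 7.09% and 11.3%, 9.16% and 12.4%, and 9.55% and 12.3% of all genes. Ak4, a mitochondrial adenylate kinase, was higher in KO at 0h by 1.90 ± 0.21.

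The side branches of glycolysis were also counted. Of 7 pentose phosphate genes, only Pgd, the second dehydrogenase of the pathway, was called between the lines, lower in KO by 0.38, 0.47 and 0.63 at the 3 times, and it fell at 8h by 0.62 ± 0.10 and 0.71 ± 0.10. At 8h 1 of the 7 rose and 2 fell in each line, against 13.0% and 16.1% of all genes (Rescue) and 11.9% and 13.5% (KO). Pgls, the lactonase of the pathway, fell by 0.52 ± 0.14 and 0.54 ± 0.14, while G6pdx, its first dehydrogenase, rose in the Rescue line by 0.52 ± 0.18 and Rpe, an epimerase, in the KO line by 0.61 ± 0.15. Of 6 gluconeogenic genes, 5 were tested, and between the lines 0 were called at 0h, and 2 higher and 1 lower in KO both at 8h (9.16% and 12.4% of all genes) and at 8h2h (9.55% and 12.3%). Pcx, pyruvate carboxylase, was higher in KO by 0.58 ± 0.17 and 0.53 ± 0.17, and Fbp1, fructose bisphosphatase, was lower by 1.13 ± 0.37 and 1.30 ± 0.37. Pck2, the mitochondrial phosphoenolpyruvate carboxykinase, was higher in KO by 2.14 ± 0.32 at 8h and 2.41 ± 0.32 at 8h2h and fell by 1.29 ± 0.32 in the Rescue line at 8h.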

How the data were processed

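RNA from 18 stem cell samples (6 groups of 3, grouped by title) was hybridised to 1-colour Agilent arrays, 100 ng being labelled per the labels. Per the file headers, the authors used Agilent Feature Extraction (12.0.1.1), with background subtraction. The deposited signal is an intensity that was not scaled between arrays, and the deposited values for download equalled it at all 62976 spots of each array (18 in all). Deposited spot flags (other values) were also read. Whether the authors normalized further was not given in the sources used here. Cy5 is named by the labels, whereas the headers describe a green channel.

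The log2 intensity minus the 75th percentile of each array was used, so changes are relative to that percentile. Of 56605 probes, 32994 had a symbol by RefSeq name; a probe was kept where every array of some group had it well above background, and outlier spots and probes left incomplete were dropped. The brightest kept probe per symbol gave 16022 genes, and 61 of 62 probes of the 33 genes were kept. No spot was saturated. Array number limits the precision. One group-means model over all 18 arrays was fitted in limma 3.58.1 (R 4.3.3, with version 1.17.8 of data.table), so each SE shares a spread over 6 groups. Tests are two-sided, with Benjamini-Hochberg adjustment per comparison over all genes, called below 0.05, and 95% intervals are unadjusted. The 12 comparisons share groups. The procedure was tested on simulated data.

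The members and gene lists were chosen with earlier results of these data known. By rule, members called with a change of at least 1 have every array's value printed, as has Pfkm because of its line difference, and up to 4 called genes of each other list may be named; a result withheld for evaluation is omitted. Promoters were read from RefSeq (GRCm38.p6), and Slc2a3 was not among the windows used here. Alternatives were normexp background (offset 50), quantile normalization, no scaling, the deposited values, other filters, the mean of probes, slide as a block, another variance prior, only the arrays compared, and leaving out each array.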

Additional observations from a re-analysis of the deposited data

Results flagged for a closer look

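The response differed between the lines by the interaction test of limma for 2 of the 33 genes. Pfkm, the phosphofructokinase of muscle type, fell from 0h in the Rescue-labelled line and rose in the KO-labelled line. The KO change minus the Rescue change was 1.24 at 8h (adjusted p = 0.00784) and 1.20 at 8h2h (adjusted p = 0.0132). On each of the 3 slides the difference had the same sign. The 8h call was kept in 9 of 10 alternatives and the 8h2h call in 8. For Slc16a1, the lactate transporter MCT1, the line difference in the 8h change was -0.69 (adjusted p = 0.0454), with the same sign on all 3 slides, kept in 3 of 18 fits that left out 1 array and in 6 of 10 alternatives. Those 10 include the deposited values, which equal the signal of the main analysis and had to keep the call.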

How the results depend on the processing

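Of 80 calls in the 33 genes, the alternatives kept between 31 (no scaling) and 80 (the deposited value table, a filter over all 18 arrays, a trended and robust prior), and none reversed. The deposited value table equals the signal of the main analysis, so its 80 was fixed in advance. Without scaling, the numbers of genes called fell to 4 between the lines at 0h and at 8h, to 3 and 5 at 8h against 0h (Rescue, KO), to 4 and 5 at 8h2h against 0h, and to 0 for 8h2h against 8h in both lines and for the line differences at 8h and 8h2h. With only the arrays compared, they were 5 at 0h between the lines, 8 for KO 8h, 5 for Rescue 8h2h against 8h, 0 for KO 8h2h against 8h, 0 for KO 8h2h against 0h, and 1 and 0 for the line differences at 8h and 8h2h against 0h. Fewer samples enter that fit. Quantile normalization gave 0 for KO 8h2h against 8h and 4 for KO 8h2h against 0h. No filter on dim probes gave 1 for KO 8h2h against 8h and 1 for the line difference at 8h, and normexp gave 1 for KO 8h2h against 8h. The cause of these losses was not tested.

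Leaving out 1 array kept 64 to 75 of the 80 calls. The number called ranged from 6 to 15 (line, 0h), 7 to 13 (line, 8h), 8 to 16 (KO 8h), 4 to 10 (KO 8h2h against 0h), 0 to 1 and 0 to 2 (8h2h against 8h, Rescue and KO), 1 to 4 (line difference at 8h) and 1 to 3 (at 8h2h against 0h). At 0h between the lines 7 were called without KO 0h a and 6 without KO 0h c. Without Rescue 0h c the line differences gave 4 and 3.

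With the replicate block (slide), 79 of 80 calls were kept and 11 gained, among them the Slc2a1 line difference at 8h (0.92, adjusted p = 0.0398); the call lost was the Slc16a1 line difference, -0.69 with adjusted p = 0.0537. Treating letters as pairing would need every same-slide pair over 0.1, and 28 of 45 same-slide pairs had residual correlations above that (-0.06 to 0.73, median 0.14), although 18 of 18 arrays correlated best with an array of their own slide, a hint from the data. The 33 genes were above background on all 18 arrays, yet normexp background correction lost 11 of the 80 calls, both of Eno2 and 1 of Pfkfb4 among them.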
